A study of Mus musculus with 21 samples.

Results

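The transcriptome of c-kit+ marrow cells was compared between mice labelled Jak2V617F and WT mice. The comparison takes 6 of the 21 samples of the series, 3 libraries per genotype, and all 16262 genes that passed a filter on low counts among the 54532 in the deposited table. Both groups are C57BL/6. After lysis of red cells, magnetic beads against CD117, the protein encoded by Kit, enriched the progenitors from marrow of the leg bones (femur and tibia). The labels give no age, no sex and no number of animals, and do not say whether the Jak2V617F allele is a knock-in or a transgene, what drives it, or what share of the cells carry it. The other RNA-seq libraries, 3 Asxl1-/-Jak2V617F and 2 Asxl1-/-, entered the fit to help estimate the spread between libraries, and they serve in a last comparison that asks whether Jak2V617F has the same effect on either background.

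Jak2 is the tyrosine kinase that sits on the erythropoietin and granulocyte colony-stimulating factor receptors, among others. When a cytokine binds, it phosphorylates the receptor and STAT transcription factors, STAT5 above all in red cell precursors. The V617F change lies in the pseudokinase domain, which normally holds the kinase in check, and leaves signalling on with little or no cytokine. It is the common driver of polycythaemia vera, in which red cell production is excessive, and occurs in essential thrombocythaemia and myelofibrosis. The c-kit+ fraction of marrow holds stem cells and the progenitors of the red cell, megakaryocyte and granulocyte-monocyte lineages, with mast cells and some early lymphoid cells.

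Library totals were 17786701 to 19196283 counts in Jak2V617F and 16198011 to 17483802 in WT. Values below are CPM, that is counts relative to library size adjusted by TMM factors, given per library in replicate order or as mean ± SD (n = 3 per genotype). Differences are log2 fold changes of Jak2V617F over WT ± standard error from edgeR's quasi-likelihood test, and a gene is called higher or lower when its Benjamini-Hochberg adjusted p over all 16262 genes is below the threshold of 0.05. In a principal component analysis of the 11 RNA-seq libraries the Jak2V617F libraries stood at 98.5 to 105 on the leading axis, apart from all 8 others at -47.3 to -17.8. The share of counts from the mitochondrial genome was 1.59 to 1.90% for Jak2V617F libraries, against 1.24 to 1.55% for WT libraries. Jak2V617F replicate 2 had 0.294 CPM of Xist, the RNA of the inactive X chromosome, while the other 5 libraries had 1563 to 2150 CPM, and Ddx3y of the Y chromosome was at 107 CPM in that library and at 0 in the other 5. Without that library 4040 genes were called higher and 4266 lower, and with it 3965 higher and 4741 lower. The sexes were thus mixed in Jak2V617F, and none of the 5 sex linked genes passed the test between genotypes.

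Jak2 itself (ENSMUSG00000024789, mm10 chr19:29251828-29313080, plus strand) had 129, 122 and 127 CPM in Jak2V617F, against 71.7, 83.4 and 75.9 CPM in WT. The groups did not overlap, and the difference was 0.71 ± 0.08 (edgeR adjusted p = 1.84e-05). Gene counts add up all alleles, so they do not show which Jak2 allele was read. Kit, the receptor used to isolate the cells, had 338, 232 and 298 CPM in Jak2V617F, against 289, 253.3 and 264 CPM in WT, with overlapping groups (0.11 ± 0.13, adjusted p = 0.523). Asxl1, a chromatin regulator altered in other groups of the study, had 196, 142 and 132 CPM in Jak2V617F, against 162, 164 and 161 CPM in WT (-0.05 ± 0.12, adjusted p = 0.741). Without Jak2V617F replicate 1 the log2 difference was -0.24 for Asxl1 (called, adjusted p = 0.0272).

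Differences were widespread. Of the 16262 genes, 8706 passed (53.5%), 3965 of them higher (24.4%) and 4741 lower (29.2%). At least 2-fold differences were found among 1168 higher genes (7.18%) and 2973 lower genes (18.3%). The balance changed with abundance. With genes split into 5 equal groups by mean level, in the lowest group 233 rose and 773 fell (median log2 -0.37), while in the highest group 1471 rose and 858 fell (median 0.17). The median over all genes was -0.05. For 61% of genes the 3 Jak2V617F libraries did not overlap with the 3 WT libraries. Lists of genes are described below by counts and medians against these backgrounds. Fewer cells of a type and less RNA per cell cannot be told apart in such bulk samples.

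**Figure D1:**
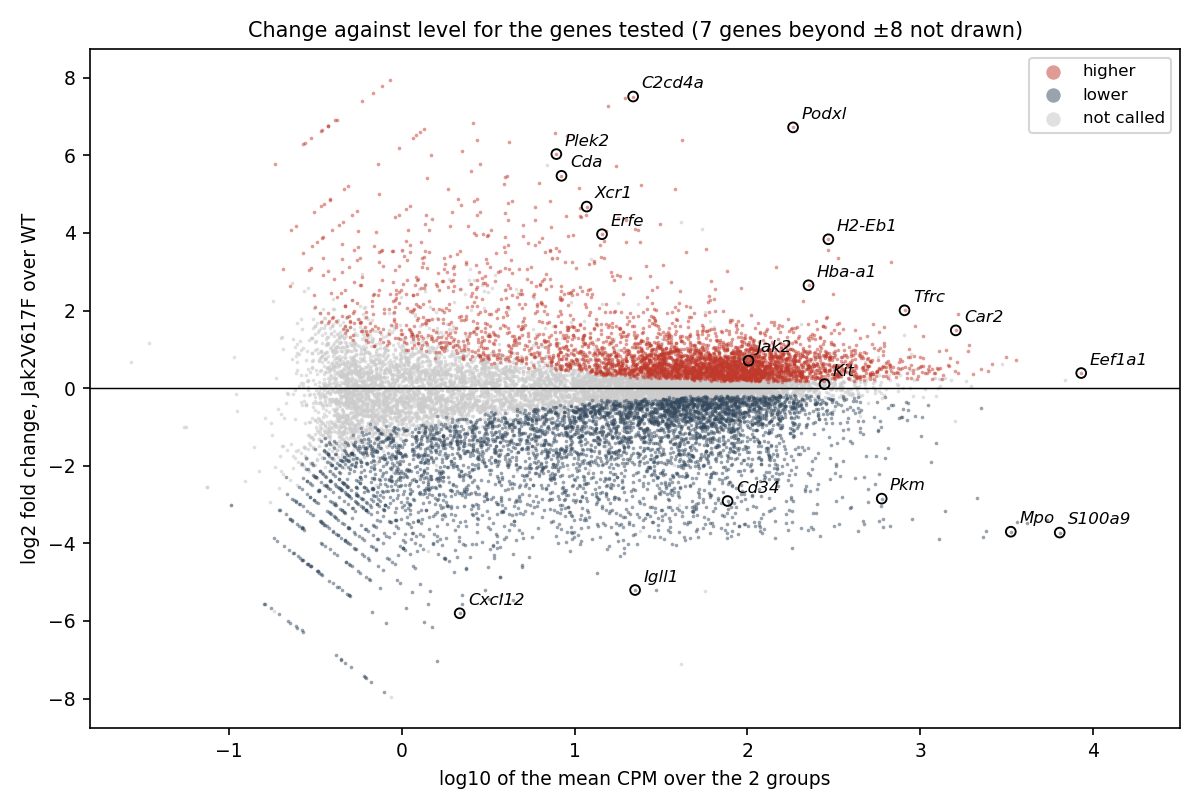
Log2 fold change of Jak2V617F over WT against log10 mean CPM for the genes tested. Red and blue points are the 3965 higher and 4741 lower genes, grey points were not called, 7 genes beyond 8 on the log2 scale are not drawn, and circled genes are named. Falls dominate at low levels and rises at high levels.

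Most genes of red cell precursors rose. Red cell development is driven by the transcription factor Gata1 with its partners Zfpm1 (FOG1), Tal1 and Ldb1, and by Klf1, and proceeds from c-kit+ progenitors to haemoglobin-filled cells that lose Kit. Of 24 erythroid transcription factor genes, 17 rose and 6 fell (median 0.68). Klf1 had 338, 328 and 357 CPM in Jak2V617F, against 139, 75.2 and 111 CPM in WT (1.65 ± 0.24, adjusted p = 0.000265). Gata1 had 229, 203 and 242 CPM in Jak2V617F, against 100.2, 62.9 and 84.7 CPM in WT (1.44 ± 0.22, adjusted p = 0.00039). All Jak2V617F libraries lay above all WT libraries for both. Nfia rose most in the list (71.1 ± 1.85 CPM in Jak2V617F against 20.1 ± 7.52 CPM in WT; 1.82 ± 0.25), and Zfpm1 (1.60 ± 0.24), Tal1 (1.60 ± 0.17), Ldb1 (0.90 ± 0.12), Sox6 (1.32 ± 0.24) and the fetal globin repressor Bcl11a (1.11 ± 0.13) also rose. The 6 that fell were Gata2 (-0.43 ± 0.16) and Myb (-0.63 ± 0.09), which act in earlier progenitors, Lyl1 (-1.07 ± 0.15), Nfe2 (-1.004 ± 0.08), Zbtb7b (-1.29 ± 0.19) and the cell cycle factor E2f2 (-0.92 ± 0.14). Zbtb7b, although counted in this list, is known as a T cell factor. Lmo2, the bridging protein of the Tal1 complex, was 283 ± 24.2 CPM in Jak2V617F against 278 ± 12.7 CPM in WT and did not pass. Leaving out Jak2V617F replicate 1 gave a log2 difference of -0.32 for Gata2 (not called, adjusted p = 0.141). With Jak2V617F replicate 3 left out the log2 difference was -0.38 for Gata2 (not called, adjusted p = 0.109). Omitting WT replicate 1 changed the log2 difference to -0.22 for Gata2 (not called, adjusted p = 0.238). Gata2 was not called with DESeq2, median-of-ratios scaling, upper quartile scaling, a stricter filter and both genotypes fitted alone (adjusted p = 0.052 to 0.0746).

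Genes that mark the early erythroid progenitor rose. Of 22 tested, 19 rose and 2 fell (median 1.30). The summed level of the list was 11113, 8868 and 9655 CPM in Jak2V617F, against 4983, 2836 and 4030.4 CPM in WT, without overlap. Car2, carbonic anhydrase 2, was 2362 ± 137 CPM in Jak2V617F against 841 ± 299 CPM in WT (1.49 ± 0.26), and Car1 was 1398 ± 576 CPM in Jak2V617F against 463 ± 187 CPM in WT (1.59 ± 0.36). Atp1b2, a sodium pump subunit, was 529 ± 90.9 CPM in Jak2V617F against 97.9 ± 40.1 CPM in WT (2.43 ± 0.28, adjusted p = 8.28e-05). Ermap, an erythroid membrane protein, rose by 1.45 ± 0.23 and the water channel Aqp1 by 1.10 ± 0.25. The 2 that fell included Apoe (-1.37 ± 0.29), and Vamp5 was 94.1 CPM in Jak2V617F against 70.4 CPM in WT and did not pass.

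Haem synthesis genes rose at most steps. Of 21 genes 16 rose and 3 fell (median 1.02). Cpox, coproporphyrinogen oxidase, had 844, 759.6 and 803 CPM in Jak2V617F, against 302, 193 and 274 CPM in WT (1.65 ± 0.22, adjusted p = 0.000146). Fech, which inserts iron into the ring, rose by 1.56 ± 0.21. Alas2, the erythroid form of the first enzyme, had 45.3, 82.1 and 12.6 CPM in Jak2V617F, against 4.59, 6.59 and 4.64 CPM in WT (3.14 ± 0.61, adjusted p = 0.00211). Its Jak2V617F libraries were far apart, with replicate 3 nearest to WT, yet none overlapped with WT. Alas1, the housekeeping form of the same enzyme, had 70.05, 57.9 and 62.9 CPM in Jak2V617F, against 379, 444 and 374 CPM in WT (-2.65 ± 0.19, adjusted p = 1.47e-06), so the 2 forms moved in opposite directions. The haem-degrading Hmox1 (-2.13 ± 0.56) and Hmox2 (-0.48 ± 0.12) made up the rest of the fallers, and Ppox (0.16 ± 0.13) and Abcb6 (0.50 ± 0.38) did not pass. The fit lacking Jak2V617F replicate 2 gave 2.50 for Alas2 and -2.76 for Hmox1 on the log2 scale. After leaving out Jak2V617F replicate 3, the log2 difference was 0.32 for Ppox (called, adjusted p = 0.0239).

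The red cell membrane list behaved likewise, with 20 of 24 higher and 1 lower (median 1.26). Rhag, of the Rhesus complex, had 447, 300.3 and 290.1 CPM in Jak2V617F, against 92.7, 51.6 and 74.2 CPM in WT (2.25 ± 0.28). The skeleton genes Ank1 (1.65 ± 0.25) and Sptb (1.52 ± 0.30) rose, as did the blood group protein gene Kel (223 ± 19.1 CPM in Jak2V617F against 76.1 ± 14.5 CPM in WT; 1.55 ± 0.22). The member that fell was Cd44 (-0.65 ± 0.07), an adhesion receptor that red cell precursors lose as they mature. Add1 (-0.04 ± 0.07), Cd47 (-0.10 ± 0.12) and Bcam (-0.94 ± 0.58) did not pass.

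Genes of the late, haemoglobin-filled stages were higher on average but varied widely within Jak2V617F. Slc4a1, the band 3 anion exchanger, had 255, 474 and 54.9 CPM in Jak2V617F, against 30.7, 32.01 and 27.7 CPM in WT (3.12 ± 0.78, adjusted p = 0.0104). Hba-a1, an alpha globin gene, had 378, 694 and 95.8 CPM in Jak2V617F, against 57.2, 56.3 and 72.1 CPM in WT (2.65 ± 0.69, adjusted p = 0.0124). Tmcc2, a late erythroid membrane gene, had 56.8, 138 and 19.99 CPM in Jak2V617F, against 18.1, 16.8 and 14.5 CPM in WT (2.12 ± 0.57, adjusted p = 0.0126). In all of these replicate 2 was highest, replicate 3 lowest and close to WT, and no Jak2V617F library fell within the WT range. Without replicate 2 the differences were 2.41 for Slc4a1, 1.98 for Hba-a1 and 1.27 for Tmcc2, with adjusted p = 0.0232, 0.0289 and 0.0113. The alpha globin copy Hba-a2 (4.39 ± 0.75) and Hbq1b (3.25 ± 0.91) also passed, whereas the beta globin genes Hbb-bs (76.6, 194 and 16.4 CPM in Jak2V617F, against 6.15, 40.01 and 50.5 CPM in WT; 1.57 ± 1.35) and Hbb-bt (1.32 ± 1.07) overlapped with WT and did not. Near-identical globin copies can share reads, so their separate values are uncertain. Of 20 other late maturation genes, 12 rose and 1 fell (median 0.57). Trim10 (1.80 ± 0.32), Prdx2 (1.12 ± 0.17) and Cdr2 (1.47 ± 0.22) rose and the Myc antagonist Mxi1 fell (-0.87 ± 0.08). The mitophagy receptor Bnip3l (-0.21 ± 0.09), Ulk1 (0.26 ± 0.11), Optn (0.04 ± 0.13) and Xpo7 (-0.07 ± 0.33), which act as red cells clear their organelles or nucleus, did not pass. Once Jak2V617F replicate 1 was omitted the log2 difference was -0.32 for Bnip3l (called, adjusted p = 0.00698). Excluding Jak2V617F replicate 2 gave a log2 difference of 3.37 for Hba-a2 and -0.60 for Xpo7 (called, adjusted p = 0.00395). Without Jak2V617F replicate 3 the log2 difference was 0.33 for Ulk1 (called, adjusted p = 0.0381). Leaving out WT replicate 1 gave a log2 difference of 0.38 for Ulk1 (called, adjusted p = 0.0166). With WT replicate 3 left out the log2 difference was 4.42 for Hbq1b.

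**Figure D2:**
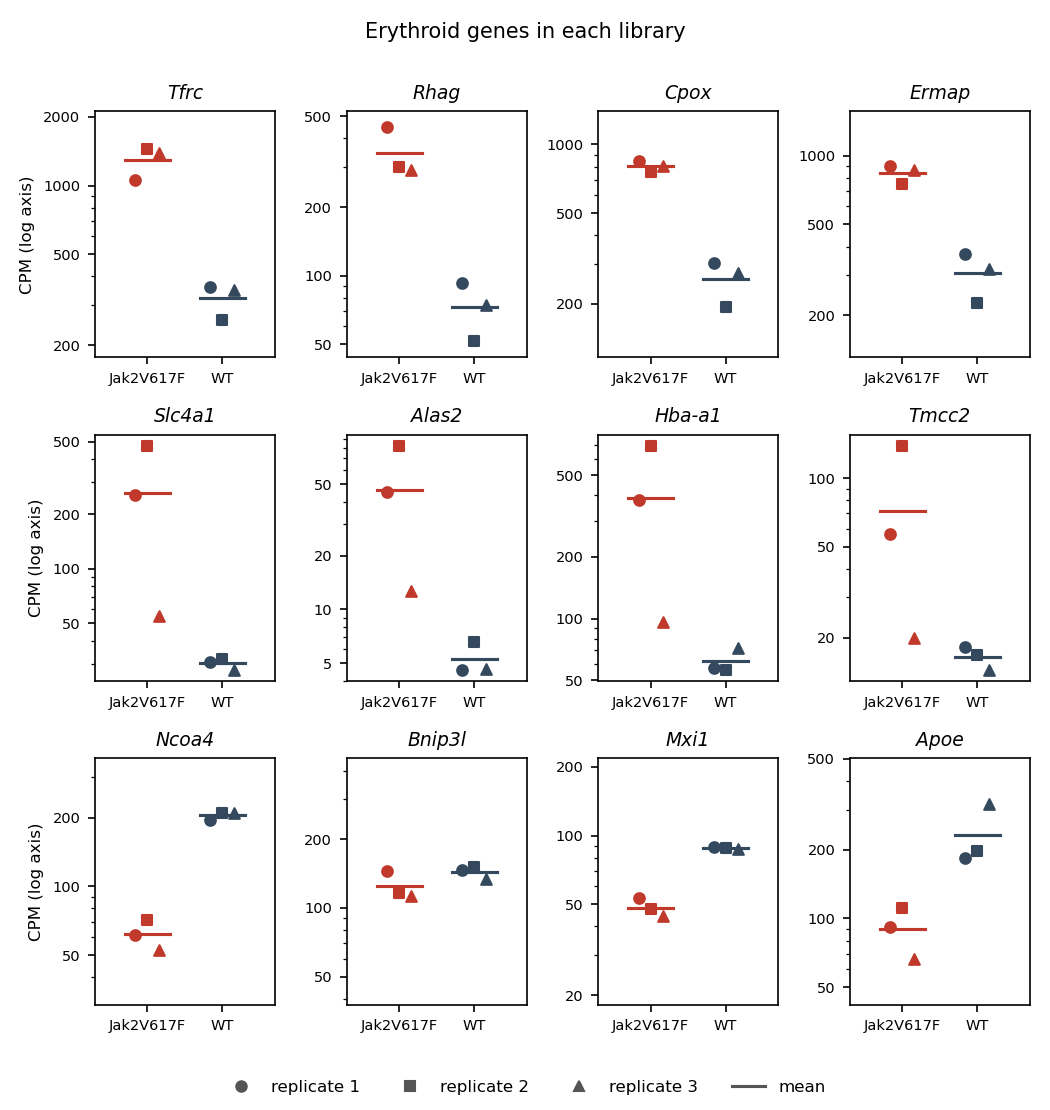
CPM of 12 erythroid genes in each library on log axes, Jak2V617F left and WT right. Symbols mark the 3 replicates and lines the means. Tfrc, Rhag, Cpox and Ermap sit well above WT in all 3 Jak2V617F libraries, while Slc4a1, Alas2, Hba-a1 and Tmcc2 spread widely with replicate 3 near WT.

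Most iron uptake and storage genes rose. Of 19 genes 11 rose and 4 fell (median 0.49). Erfe, the hormone by which red cell precursors lower hepcidin in the liver, had 38.4, 22.1 and 20.8 CPM in Jak2V617F, against 1.96, 1.41 and 1.81 CPM in WT (3.97 ± 0.31, adjusted p = 1.55e-06). The transferrin receptor Tfrc had 1054, 1448 and 1387 CPM in Jak2V617F, against 361, 259 and 348 CPM in WT (2.01 ± 0.25). The ferrireductase Steap3 (1.55 ± 0.20), the iron transporter Slc11a2 (1.15 ± 0.16) and ferritin heavy chain Fth1 (1148 ± 108 CPM in Jak2V617F against 567 ± 114 CPM in WT; 1.02 ± 0.14) rose. Ncoa4, the receptor that delivers ferritin to the lysosome, fell (61.8 ± 9.37 CPM in Jak2V617F against 205 ± 7.70 CPM in WT; -1.73 ± 0.12), and so did the exporter Slc40a1 (-1.06 ± 0.18) and Slc25a28 (-0.49 ± 0.12). Slc25a37, mitoferrin 1, was 237 CPM in Jak2V617F against 169 CPM in WT and did not pass (adjusted p = 0.13), like Ftl1 (-0.21 ± 0.13), Ireb2 (0.11 ± 0.06) and Hfe (-0.47 ± 0.24). Omitting Jak2V617F replicate 3 changed the log2 difference to 0.76 for Slc25a37 (called, adjusted p = 0.00299).

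Promoter sequences of 3 of these genes are shown because they hold the letters that Gata1 is known to recognise. RefSeq's table for GRCm38.p6 gives windows of 300 bases, 250 before to 50 after an annotated start, for 10857 of the 16262 genes tested. The windows below are those of Epor (chr9:21963527-21963826, minus strand), Alas2 (chrX:150547167-150547466, plus strand) and Kel (chr6:41704276-41704575, minus strand), read 5′ to 3′, with AGATAA or TGATAA on either strand in capitals.
Epor: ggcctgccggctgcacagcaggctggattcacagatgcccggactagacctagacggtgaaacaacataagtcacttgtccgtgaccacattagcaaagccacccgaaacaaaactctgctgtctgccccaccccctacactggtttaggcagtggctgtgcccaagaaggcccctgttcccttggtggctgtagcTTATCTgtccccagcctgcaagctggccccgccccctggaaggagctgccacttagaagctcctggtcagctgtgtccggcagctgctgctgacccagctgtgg
Alas2: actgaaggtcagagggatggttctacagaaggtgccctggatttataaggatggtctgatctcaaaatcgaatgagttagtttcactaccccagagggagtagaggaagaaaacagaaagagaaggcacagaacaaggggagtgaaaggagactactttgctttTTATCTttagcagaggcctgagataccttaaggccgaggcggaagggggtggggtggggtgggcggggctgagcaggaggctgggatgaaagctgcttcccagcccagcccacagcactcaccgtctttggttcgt
Kel: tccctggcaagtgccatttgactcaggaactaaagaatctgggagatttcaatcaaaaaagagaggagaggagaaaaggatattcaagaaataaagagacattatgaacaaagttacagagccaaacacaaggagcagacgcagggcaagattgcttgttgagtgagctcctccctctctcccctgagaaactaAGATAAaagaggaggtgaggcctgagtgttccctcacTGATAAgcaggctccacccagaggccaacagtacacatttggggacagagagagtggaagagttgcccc
Epor and Alas2 had 1 match each on the opposite strand, and Kel had 2. Among genes of the 7 erythroid lists with a window, 29 of 104 held AGATAA or TGATAA (27.9%), against 1442 of 10857 genes tested (13.3%). The letters were not particular to lists that rose. Of lists described below in which most genes fell, mast cell and basophil genes held them in 7 of 10 windows. Eosinophil genes held them in 4 of 8, megakaryocyte and platelet genes in 7 of 17, and the 2 granule lists in 5 of 33. Among all genes higher in Jak2V617F the share was 12.8%, and among all lower genes 13.3%. A match describes letters only and does not show that a factor binds there.

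The erythropoietin receptor rose, while many receptors of other lineages fell. Epor, the erythropoietin receptor (ENSMUSG00000006235, mm10 chr9:21958897-21963506, minus strand), had 204, 156 and 168 CPM in Jak2V617F, against 71.7, 39.5 and 54.2 CPM in WT (1.67 ± 0.21, adjusted p = 9.67e-05), with no overlap. Of 35 cytokine and growth factor receptors tested, 4 rose and 20 fell (median -0.60). Besides Epor the risers included Il10ra (1.15 ± 0.27) and Flt3 (0.55 ± 0.17). Several receptors for other cytokines that signal through Jak2 fell. Csf3r, the granulocyte colony-stimulating factor receptor, had 41.97, 42.3 and 23.8 CPM in Jak2V617F, against 249, 423 and 304 CPM in WT (-3.17 ± 0.27). Csf2ra (-2.200 ± 0.16), Il3ra (-2.04 ± 0.23) and their shared chain Csf2rb (-1.81 ± 0.21) fell as well, along with the TNF receptor Tnfrsf1a (-2.41 ± 0.16). The fit lacking WT replicate 3 gave 0.42 for Flt3 (not called, adjusted p = 0.0621) on the log2 scale.

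Among kinases and STAT factors, 3 of 11 rose (27.3%) and 6 fell (54.5%), against 24.4% and 29.2% of all genes tested. Stat5a, which carries the erythropoietin signal, had 201, 148 and 171 CPM in Jak2V617F, against 122, 93.7 and 98.5 CPM in WT (0.73 ± 0.12, adjusted p = 0.000379). Its close relative Stat5b had 181, 144 and 166 CPM in Jak2V617F, against 178, 171 and 159 CPM in WT and did not pass (-0.05 ± 0.09). Jak1 rose (0.48 ± 0.10), while Jak3 (-1.25 ± 0.17), Stat2 (-0.74 ± 0.19), Stat3 (-1.14 ± 0.14), Stat4 (-2.14 ± 0.22) and Stat6 (-0.43 ± 0.09) fell, and Tyk2 did not pass (0.02 ± 0.07). The feedback inhibitor Cish, a STAT5 target, had 12.02, 9.32 and 11.8 CPM in Jak2V617F, against 6.04, 3.10 and 4.52 CPM in WT (1.28 ± 0.25, adjusted p = 0.00126). Its relative Socs2 had 9.12, 8.73 and 9.02 CPM in Jak2V617F, against 6.32, 4.23 and 5.12 CPM in WT (0.78 ± 0.24, adjusted p = 0.0161). Socs1 (0.30 ± 0.31) and Socs3 (0.75 ± 0.49) did not pass. Of the 20 inhibitors tested 5 rose (25.0%) and 6 fell (30.0%), near the 24.4% and 29.2% of all genes tested. The fallers included the phosphatase Ptpn6 (SHP-1; -0.88 ± 0.10), the adaptor Sh2b3 (LNK; -0.59 ± 0.09) and the ubiquitin ligase Cbl (-0.90 ± 0.11). After leaving out WT replicate 2, the log2 difference was 0.64 for Socs2 (not called, adjusted p = 0.0685).

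The Cish window (chr9:107296409-107296708, plus strand) is printed because it holds the palindrome that STAT5 recognises, TTCNNNGAA, in capitals.
Cish: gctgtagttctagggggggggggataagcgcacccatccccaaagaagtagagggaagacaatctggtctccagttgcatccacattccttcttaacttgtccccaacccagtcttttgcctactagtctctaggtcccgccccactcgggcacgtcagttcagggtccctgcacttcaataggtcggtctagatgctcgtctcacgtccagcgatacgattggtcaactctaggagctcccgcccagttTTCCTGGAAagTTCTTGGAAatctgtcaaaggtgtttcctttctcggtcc
It held 2 such matches just after the annotated start, while 914 of 10857 windows of tested genes held any (8.42%).

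Classic targets of the pathway split. Of 16 genes 3 rose (18.8%) and 6 fell (37.5%), against 24.4% and 29.2% of all genes tested (list median 0.08). The risers included the cyclin genes Ccnd1 (1.39 ± 0.39) and Ccnd2 (0.50 ± 0.09). Pim1 (79.4, 69.6 and 71.4 CPM in Jak2V617F, against 74.02, 52.7 and 47.3 CPM in WT; 0.34 ± 0.21), Myc (0.49 ± 0.23), Osm (0.09 ± 0.32), Mcl1 (0.08 ± 0.11) and Bcl2l1 (-0.61 ± 0.24, adjusted p = 0.0512) did not pass. Id1 (-3.02 ± 0.32), Lrg1 (-2.97 ± 0.42), Cd69 (-2.56 ± 0.27) and Ccnd3 (-1.06 ± 0.13) fell. Among 19 genes of erythropoietin signalling 8 rose and 3 fell, with the adaptor Irs2 (1.35 ± 0.14) and the pseudokinase Trib2 (1.396 ± 0.23) among the risers. Of 11 feedback genes of the MAP kinase pathway, Etv5 (0.74 ± 0.26) and Spred1 (0.39 ± 0.12) rose and Dusp6 (-1.36 ± 0.16) and Spry2 (-1.44 ± 0.18) fell. These were 18.2% in each direction, below the shares of all genes tested. Of 18 immediate early genes 4 rose (22.2%), among them Nr4a3 (3.77 ± 0.66) and Ier5 (0.72 ± 0.15), and Klf6 (-1.61 ± 0.23) and Ier2 (-0.87 ± 0.15) fell (11.1%). Once Jak2V617F replicate 1 was omitted the log2 difference was 0.60 for Etv5 (not called, adjusted p = 0.102). Excluding Jak2V617F replicate 2 gave a log2 difference of -0.98 for Bcl2l1 (called, adjusted p = 0.000216). Without WT replicate 1 the log2 difference was 0.59 for Pim1 (called, adjusted p = 0.0354) and 0.72 for Myc (called, adjusted p = 0.0417). Leaving out WT replicate 2 gave a log2 difference of 0.54 for Etv5 (not called, adjusted p = 0.116) and 0.30 for Spred1 (not called, adjusted p = 0.0698). With WT replicate 3 left out the log2 difference was 0.63 for Etv5 (not called, adjusted p = 0.102) and 0.36 for Spred1 (not called, adjusted p = 0.0547). Ccnd1 was not called with no filter on low counts (adjusted p = 0.0591). JAK-STAT target genes that rose numbered 5 without WT replicate 1. Immediate early genes that rose numbered 2 without Jak2V617F replicate 3, WT replicate 2 or WT replicate 3, 7 without WT replicate 1 and 2 with no filter on low counts.

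**Figure D3:**
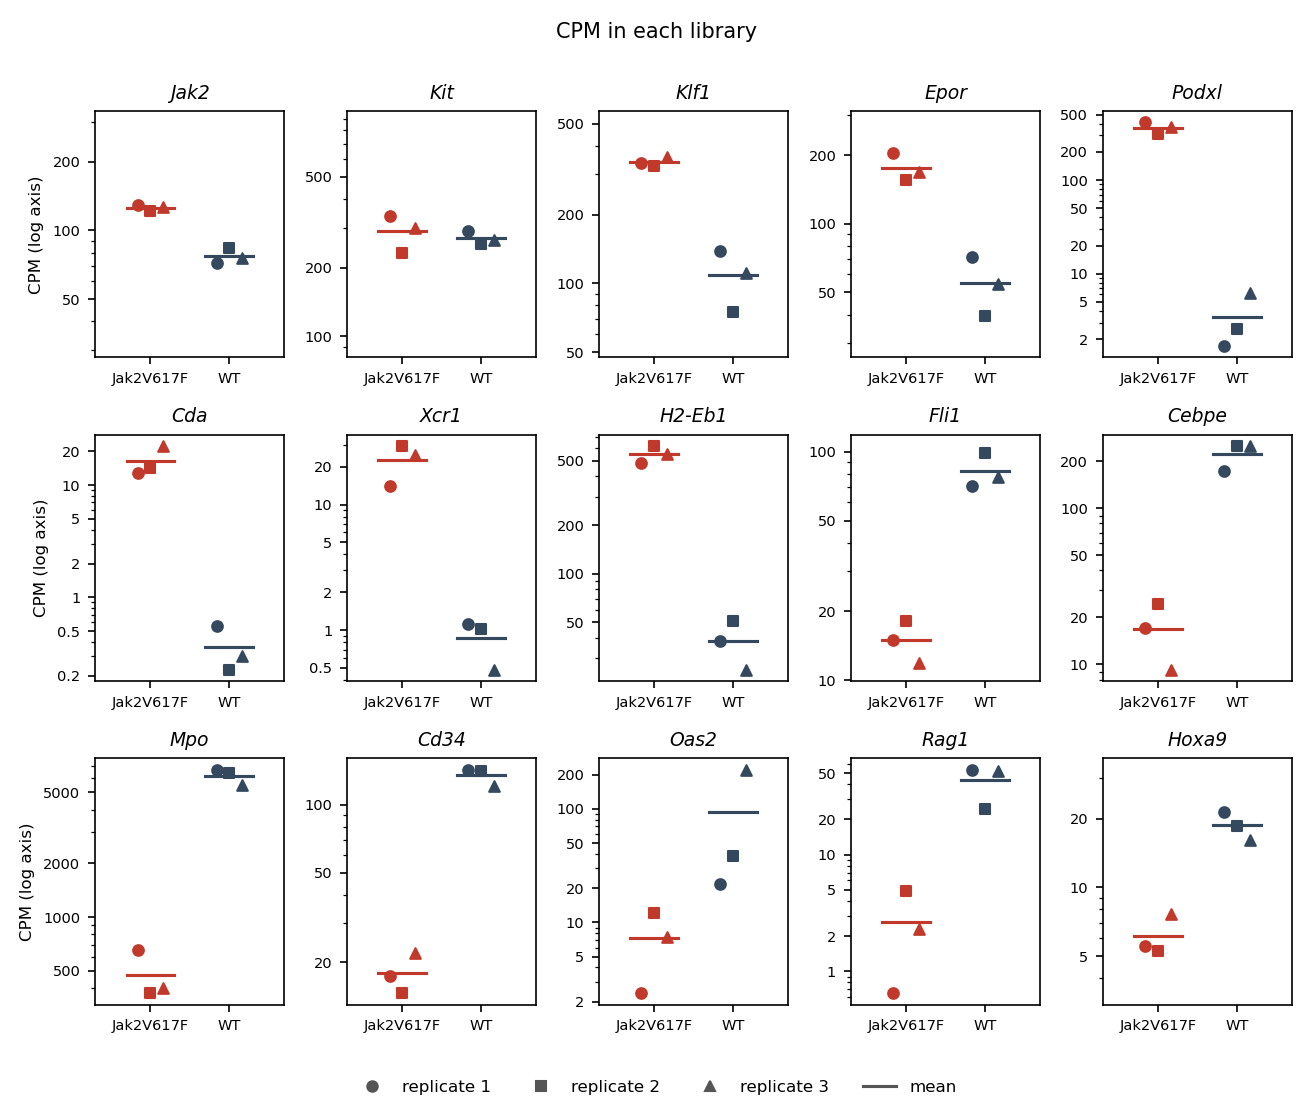
CPM of 15 genes in each library on log axes, Jak2V617F left and WT right, with replicates as symbols and means as lines. Kit overlaps between genotypes, while Jak2, Klf1, Epor, Podxl, Cda, Xcr1 and H2-Eb1 are higher in every Jak2V617F library and Fli1, Cebpe, Mpo, Cd34, Oas2, Rag1 and Hoxa9 lower.

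Several genes that were almost silent in WT were many-fold higher in Jak2V617F. Among the 15 largest rises the mean level in Jak2V617F ran from 4.12 CPM for Ryr3 to 364 CPM for Podxl. Podxl, the sialomucin podocalyxin (ENSMUSG00000025608, mm10 chr6:31519488-31563981, minus strand), had 413, 309.7 and 368 CPM in Jak2V617F, against 1.68, 2.59 and 6.15 CPM in WT (6.72 ± 0.43, adjusted p = 3.07e-06). C2cd4a had 38.6, 38.3 and 53.3 CPM in Jak2V617F, against 0.112, 0.338 and 0.241 CPM in WT (7.52 ± 0.31, adjusted p = 7.66e-08). Plek2, a pleckstrin relative that acts on the actin skeleton of red cell precursors, had 18.6, 14.3 and 13.6 CPM in Jak2V617F, against 0.224, 0.338 and 0.121 CPM in WT (6.03 ± 0.55). Cda, cytidine deaminase of pyrimidine salvage, had 12.9, 14.1 and 22.3 CPM in Jak2V617F, against 0.559, 0.225 and 0.301 CPM in WT (5.47 ± 0.41). In each of these 4 genes the lowest Jak2V617F library was more than 10-fold above the highest WT library. The metalloprotease relative Adam23 had 21.2, 45.8 and 49.2 CPM in Jak2V617F, against 0.112, 0.451 and 0.0603 CPM in WT (7.48 ± 0.60). The others among the 15 largest rises were Fam124a (7.28 ± 0.91), the calcium channel subunit Cacnb3 (6.83 ± 0.79), Apol7c (6.57 ± 0.68), Stra6l (6.50 ± 0.60), the homeobox gene Nkx1-2 (6.33 ± 0.56), the lectin Clec4a4 (6.10 ± 0.49), the protease inhibitor Spint1 (5.44 ± 0.64), Apol11b (5.28 ± 1.17), the nuclease Dnase1l3 (5.24 ± 0.46) and the calcium release channel Ryr3 (4.87 ± 0.71). Omitting Jak2V617F replicate 2 changed the log2 difference to 5.89 for Apol7c and 3.74 for Apol11b. The fit lacking WT replicate 1 gave 5.49 for Ryr3 on the log2 scale. After leaving out WT replicate 2, the log2 difference was 8.69 for Adam23, 9.52 for Cacnb3 and 6.90 for Spint1. Once WT replicate 3 was omitted the log2 difference was 7.41 for Podxl and 5.996 for Dnase1l3.

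Granulocyte and monocyte genes fell. These cells arise under Spi1 (PU.1), Cebpa and, in the neutrophil branch, Gfi1 and Cebpe, and load primary granules with proteases before making the secondary granules of the mature neutrophil. Of 21 transcription factors of this branch, 0 rose and 12 fell (median -1.39). Cebpe had 17.02, 24.3 and 9.23 CPM in Jak2V617F, against 172, 251 and 250.2 CPM in WT (-3.73 ± 0.32, adjusted p = 1.48e-05). Gfi1 had 12.8, 8.78 and 7.91 CPM in Jak2V617F, against 116, 126 and 105 CPM in WT (-3.56 ± 0.29), and Cebpa had 19.4, 13.2 and 12.8 CPM in Jak2V617F, against 119.9, 115 and 85.2 CPM in WT (-2.82 ± 0.26). Spi1 fell less (56.9 ± 8.69 CPM in Jak2V617F against 241 ± 16.4 CPM in WT; -2.08 ± 0.16). None of these 4 overlapped between genotypes. Irf8, the factor of monocytes and dendritic cells, was 132 ± 32.8 CPM in Jak2V617F against 178 ± 27.4 CPM in WT and did not pass (-0.43 ± 0.17), nor did Cebpg (0.04 ± 0.12), Id2 (0.03 ± 0.18), Irf4 (0.38 ± 0.60), Irf5 (0.60 ± 0.24) or Runx3 (0.37 ± 0.16). Excluding Jak2V617F replicate 1 gave a log2 difference of 0.48 for Runx3 (called, adjusted p = 0.0442). Without Jak2V617F replicate 2 the log2 difference was -0.58 for Irf8 (called, adjusted p = 0.00936). Leaving out Jak2V617F replicate 3 gave a log2 difference of 0.72 for Irf5 (called, adjusted p = 0.0498). With WT replicate 1 left out the log2 difference was 0.62 for Runx3 (called, adjusted p = 0.00333). Omitting WT replicate 2 changed the log2 difference to 0.77 for Irf5 (called, adjusted p = 0.0398). The fit lacking WT replicate 3 gave -0.55 for Irf8 (called, adjusted p = 0.0246) on the log2 scale. Granulocyte and monocyte transcription factor genes that rose numbered 1 without Jak2V617F replicate 1, Jak2V617F replicate 3, WT replicate 1 or WT replicate 2, 2 with DESeq2, median-of-ratios scaling or upper quartile scaling and 1 with scaling by library totals, a stricter filter or both genotypes fitted alone.

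All 15 primary granule genes tested fell (median -3.36), and so did all 23 late neutrophil genes (median -3.45). The summed level of the primary granule list was 2419, 1951 and 1997 CPM in Jak2V617F, against 17009, 16162 and 14135 CPM in WT. Mpo, myeloperoxidase (ENSMUSG00000009350, mm10 chr11:87793581-87804413, plus strand), had 654, 374 and 402 CPM in Jak2V617F, against 6692, 6374 and 5506 CPM in WT (-3.70 ± 0.27, adjusted p = 1.75e-06). Elane, neutrophil elastase, had 237, 125 and 126 CPM in Jak2V617F, against 2466, 2528 and 2201 CPM in WT (-3.88 ± 0.28). In the late neutrophil list S100a9, the most abundant member in WT, had 1118, 1156 and 428 CPM in Jak2V617F, against 8029, 14596 and 13037 CPM in WT (-3.72 ± 0.39). Replicate 3 of Jak2V617F had the lowest S100a9 level of the 3. In the primary granule list Calr (-0.75 ± 0.16) and Ctsc (-0.80 ± 0.19), which many cell types express, fell least. Of the 8 phagocyte oxidase genes 7 fell, led by the catalytic subunit Cybb (98.3 ± 37.03 CPM in Jak2V617F against 1052 ± 265 CPM in WT; -3.42 ± 0.28), and the exception was the widely used GTPase Rac1 (-0.12 ± 0.10).

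Windows of the neighbouring granule protease genes Elane (chr10:79886062-79886361, plus strand) and Prtn3 (chr10:79879417-79879716, plus strand) are printed for the GAGGAAG letters of PU.1 sites, in capitals.
Elane: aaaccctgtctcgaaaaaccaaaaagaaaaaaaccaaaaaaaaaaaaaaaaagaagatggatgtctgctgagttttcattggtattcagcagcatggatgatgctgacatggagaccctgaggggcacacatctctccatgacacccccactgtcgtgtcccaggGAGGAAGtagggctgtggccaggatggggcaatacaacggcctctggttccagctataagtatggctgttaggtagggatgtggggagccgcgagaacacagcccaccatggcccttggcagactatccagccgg
Prtn3: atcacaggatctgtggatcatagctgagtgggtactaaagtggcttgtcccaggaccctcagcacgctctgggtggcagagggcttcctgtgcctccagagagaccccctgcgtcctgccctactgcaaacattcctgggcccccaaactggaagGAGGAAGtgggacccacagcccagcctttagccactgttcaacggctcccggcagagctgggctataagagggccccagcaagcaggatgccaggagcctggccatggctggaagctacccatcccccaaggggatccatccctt
Each held 1 match. GAGGAAG on either strand was in 14 of 33 windows of the 2 granule lists (42.4%), against 16.3% of all genes tested, 14.7% of higher and 19.5% of lower genes. TTGCNNAA, the core of sites for the Cebp factors, was in 13 of those 33 (39.4%) and in 10.4% of all genes tested.

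Other myeloid lineages fell too. Of 24 monocyte and macrophage genes 20 fell and 0 rose (median -2.32). The lysozyme gene Lyz2 was 347 ± 157 CPM in Jak2V617F against 4426 ± 1263 CPM in WT (-3.67 ± 0.37). The complement genes C1qa (-3.16 ± 0.69) and C1qb (-2.55 ± 0.66) of resident macrophages fell with Vcam1 (-2.35 ± 0.64) and Axl (-2.87 ± 0.62). Ctss (-0.07 ± 0.30) and Mpeg1 (-0.26 ± 0.20), which dendritic cells also express, did not pass, nor did Fn1 (13.5, 10.01 and 3.27 CPM in Jak2V617F, against 24.3, 179.8 and 10.5 CPM in WT; -3.005 ± 1.23) or Mertk (-1.68 ± 0.65). Siglec1, a lectin of marrow macrophages, had 1.82, 2.40 and 0.369 CPM in Jak2V617F, against 29.4, 29.3 and 114 CPM in WT (-5.21 ± 0.85), WT replicate 3 standing above the other WT libraries. Of 10 eosinophil genes 9 fell (median -2.88), for example Epx (-3.46 ± 0.38) and Prg2 (-2.86 ± 0.29), and Il5ra (0.44 ± 0.52) did not pass. Of 10 mast cell and basophil genes 7 fell, with Hdc (-3.07 ± 0.24), Mcpt8 (-3.18 ± 0.32) and Prss34 (-3.06 ± 0.61), and Il1rl1, the interleukin-33 receptor, rose (78.8 ± 15.6 CPM in Jak2V617F against 36.6 ± 5.68 CPM in WT; 1.11 ± 0.16). After leaving out Jak2V617F replicate 2, the log2 difference was -2.94 for Vcam1, -3.60 for Axl and -2.50 for Mertk (called, adjusted p = 0.00905). Once WT replicate 3 was omitted the log2 difference was -2.42 for C1qa, -1.87 for C1qb, -3.52 for Fn1 (called, adjusted p = 0.04) and -4.25 for Siglec1.

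Megakaryocyte genes did not follow the erythroid ones, although both lineages share a progenitor and Gata1. Of 24 tested 0 rose and 17 fell (median -1.95). Fli1, the ETS factor of the lineage, had 15.03, 18.1 and 11.9 CPM in Jak2V617F, against 70.8, 98.6 and 77.6 CPM in WT (-2.45 ± 0.19, adjusted p = 2.04e-06). Itga2b, an integrin of platelets and stem cells, had 11.8, 14.9 and 18.1 CPM in Jak2V617F, against 54.6, 64.6 and 52.6 CPM in WT (-1.94 ± 0.17). Pf4 (-2.70 ± 0.25), Itgb3 (-2.37 ± 0.24) and Runx1 (-0.95 ± 0.11) fell as well. The platelet receptor genes Gp5 (0.40 ± 0.26), Gp1ba (0.08 ± 0.28) and Gp9 (-0.52 ± 0.26) and the adhesive protein gene Vwf (16.6 ± 2.03 CPM in Jak2V617F against 18.7 ± 1.25 CPM in WT; -0.18 ± 0.14) did not pass. Excluding WT replicate 1 gave a log2 difference of 0.81 for Gp5 (called, adjusted p = 0.0121). Megakaryocyte and platelet genes that rose numbered 1 without Jak2V617F replicate 1 or WT replicate 1.

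Stem and early progenitor genes fell more often than they rose. Of 24 stem cell list genes 11 fell and 4 rose (median -0.69). Cd34 had 17.4, 14.6 and 22.1 CPM in Jak2V617F, against 143, 142 and 121 CPM in WT (-2.91 ± 0.17, adjusted p = 3.89e-07). Hlf (-2.92 ± 0.24), Meis1 (-1.93 ± 0.19), Mecom (-2.13 ± 0.32) and Angpt1 (-1.51 ± 0.28) fell. The risers were Mllt3 (84.4 ± 20.1 CPM in Jak2V617F against 30.2 ± 4.13 CPM in WT; 1.48 ± 0.16), Flt3 (0.55 ± 0.17), Msi2 (0.46 ± 0.12) and Bmi1 (0.37 ± 0.08). Procr (0.59 ± 0.45), Slamf1 (1.42 ± 0.63), Ly6a (0.35 ± 0.56), Esam (-0.16 ± 0.39) and Cd48 (-0.25 ± 0.15) did not pass. Of 14 Hox, Meis and Pbx genes 11 fell and 0 rose, Hoxa9 among them with 5.53, 5.25 and 7.65 CPM in Jak2V617F, against 21.4, 18.5 and 16.1 CPM in WT (-1.60 ± 0.20), and Pbx3 (0.44 ± 0.26), Pknox1 (0.05 ± 0.11) and Hoxa4 (-0.55 ± 0.48) did not pass. By the family annotation in the table, 24 of 42 homeobox genes fell and 2 rose, 12 of 20 ETS genes fell and 3 rose, and 23 of 46 bHLH genes fell and 10 rose. Without Jak2V617F replicate 1 the log2 difference was 1.82 for Slamf1 (called, adjusted p = 0.0271). Leaving out Jak2V617F replicate 2 gave a log2 difference of 1.86 for Slamf1 (called, adjusted p = 0.0234). With Jak2V617F replicate 3 left out the log2 difference was -0.40 for Cd48 (called, adjusted p = 0.0401). Omitting WT replicate 3 changed the log2 difference to 0.42 for Flt3 (not called, adjusted p = 0.0621).

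**Figure D4:**
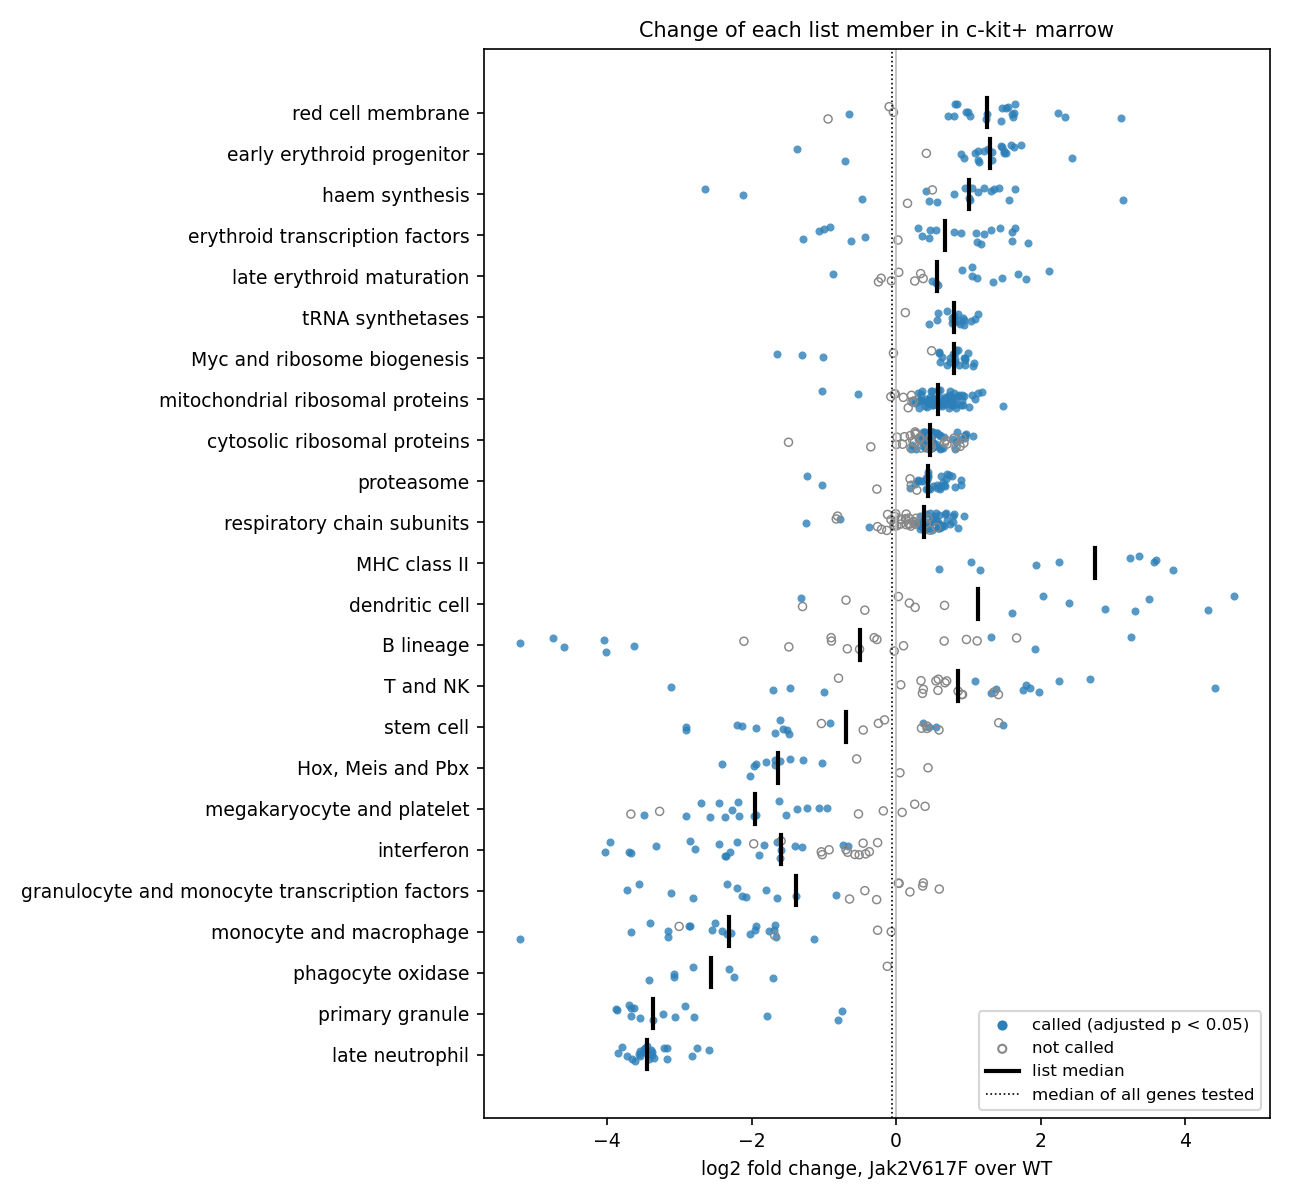
Log2 fold change of Jak2V617F over WT for each tested member of 24 gene lists. Filled points were called, open points were not, thick bars are list medians and the dotted line is the median of all genes (-0.05). Medians of erythroid and protein synthesis lists lie right of 0, those of the granule lists at -3.36 and -3.45, and lymphoid lists are spread to both sides.

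Many interferon genes fell. Interferon-stimulated genes encode antiviral sensors and effectors and are induced through Stat2 and Irf9. Of 34 tested 21 fell and 0 rose (median -1.60). Oas2 had 2.36, 12.1 and 7.44 CPM in Jak2V617F, against 21.8, 38.8 and 222 CPM in WT (-3.68 ± 0.999, adjusted p = 0.0153). Oasl2 had 2.36, 5.003 and 5.28 CPM in Jak2V617F, against 14.04, 30.4 and 163 CPM in WT (-4.03 ± 0.94), and Ifit1 had 0.429, 1.03 and 1.74 CPM in Jak2V617F, against 3.30, 5.02 and 42.3 CPM in WT (-3.97 ± 1.07). WT replicate 3 was far above the other WT libraries for these genes, and the summed level of the list was 951, 1173 and 1114 CPM in Jak2V617F, against 1545, 1456 and 3524 CPM in WT. Without WT replicate 3, 17 genes fell, and the differences were -2.05 for Oas2, -2.40 for Oasl2 and -1.96 for Ifit1. Irf9 (-0.26 ± 0.24), Ly6e (-0.37 ± 0.18), Rsad2 (-0.57 ± 0.81), Isg15 (-1.59 ± 0.95) and Irf7 (-1.97 ± 0.76) did not pass. The interferon response element, GAAA, any 2 bases and GAAA again, was in 16 of 24 windows of the list and in 4.05% of all genes tested. The fit lacking WT replicate 1 gave -2.30 for Irf7 (called, adjusted p = 0.0354) on the log2 scale. After leaving out WT replicate 2, the log2 difference was -0.50 for Ly6e (called, adjusted p = 0.0418) and -2.39 for Irf7 (called, adjusted p = 0.0265).

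Inflammatory genes moved in both directions. The list of 15 genes around TNF and NF-kB had 3 risers (20%) and 4 fallers (26.7%), near the shares of all genes. Traf1 (26.9 ± 7.65 CPM in Jak2V617F against 2.65 ± 0.757 CPM in WT; 3.34 ± 0.35), Relb (1.97 ± 0.30) and Rela (0.39 ± 0.09) were the risers. The cytokine Tnf (2.43 ± 0.484 CPM in Jak2V617F against 10.5 ± 2.15 CPM in WT; -2.11 ± 0.34) and its receptor genes Tnfrsf1a and Tnfrsf1b (-1.75 ± 0.15) fell. Of 19 inflammatory mediators and sensors 3 rose, the chemokine Ccl5 (1.86 ± 0.36), Tlr9 (1.45 ± 0.33) and Tlr1 (1.04 ± 0.27), and 9 fell, among them Tlr4 (-2.51 ± 0.35), Ccl9 (-2.57 ± 0.34) and Il1rn (-3.81 ± 0.42). Il1b was 8.58 CPM in Jak2V617F against 6.08 CPM in WT and did not pass. TNF and NF-kB genes that rose numbered 6 without Jak2V617F replicate 1.

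Antigen presentation genes rose. MHC class II molecules display peptides to T cells and are made by dendritic cells, B cells and some macrophages under the coactivator Ciita. All 10 tested genes rose (median 2.75). H2-Eb1 had 481, 616 and 549.8 CPM in Jak2V617F, against 38.4, 51.2 and 25.4 CPM in WT (3.84 ± 0.29, adjusted p = 5.59e-06). Ciita had 72.8, 135 and 109 CPM in Jak2V617F, against 7.55, 12.6 and 6.09 CPM in WT (3.60 ± 0.37, adjusted p = 3.64e-05). H2-DMa, the peptide loading subunit, rose least (50.05 ± 5.09 CPM in Jak2V617F against 33.2 ± 2.93 CPM in WT; 0.59 ± 0.12). Of 16 dendritic cell genes 8 rose and 1 fell (median 1.14), and their summed level was 442, 635 and 539.5 CPM in Jak2V617F, against 397, 419 and 416 CPM in WT. The part of dendritic cells in the class II values was not tested. Xcr1, the chemokine receptor of cross-presenting dendritic cells, had 14.1, 29.2 and 24.6 CPM in Jak2V617F, against 1.12, 1.01 and 0.482 CPM in WT (4.68 ± 0.37, adjusted p = 1.84e-06). Clec9a (32.4 ± 8.29 CPM in Jak2V617F against 4.38 ± 0.847 CPM in WT; 2.89 ± 0.28) and Batf3 (3.30 ± 0.32) of the same cells rose, as did Itgax (CD11c; 3.50 ± 0.32), Fscn1 (4.32 ± 0.46), Ccr7 (2.39 ± 0.58) and Zbtb46 (1.60 ± 0.19). Clec10a fell (-1.32 ± 0.32), and the plasmacytoid dendritic cell genes Siglech (-1.30 ± 0.78), Tcf4 (0.18 ± 0.11) and Bst2 (-0.69 ± 0.41) did not pass. Once WT replicate 2 was omitted the log2 difference was 3.06 for Ccr7.

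Several early B lineage genes fell, while many immunoglobulin genes rose. In pro-B and pre-B cells Rag1 and Rag2 cut the immunoglobulin genes and Vpreb1 with Igll1 forms the surrogate light chain. Igll1 had 0.161, 2.06 and 1.27 CPM in Jak2V617F, against 51.8, 29.8 and 49.3 CPM in WT (-5.20 ± 0.93, adjusted p = 0.00171). Rag1 had 0.644, 4.91 and 2.32 CPM in Jak2V617F, against 53.5, 24.3 and 51.8 CPM in WT (-4.02 ± 0.98, adjusted p = 0.00884). Dntt (-4.05 ± 0.47), Rag2 (-4.60 ± 0.56), Vpreb1 (-4.75 ± 0.70) and Vpreb3 (-3.63 ± 0.67) fell too, without overlap. Of the 23 B lineage genes tested these 6 fell and 3 rose, among them Cr2 (3.25 ± 0.65) and Ighm. Ighm, the immunoglobulin M heavy chain, had 3233, 3568 and 1023 CPM in Jak2V617F, against 438, 855 and 770.1 CPM in WT (1.92 ± 0.55, adjusted p = 0.0175), with Jak2V617F replicate 3 close to WT. Pax5 (18.8 ± 11.7 CPM in Jak2V617F against 35.1 ± 8.61 CPM in WT; -0.90 ± 0.76), Cd79a (-0.51 ± 0.69), Ebf1 (-2.11 ± 0.82) and Ms4a1 (1.67 ± 0.75) did not pass. Of 165 immunoglobulin V gene segments tested 67 rose and 0 fell (median 2.35), where reads from near-identical segments may be shared. Of 10 plasma cell genes 2 rose, among them Sdc1 (1.58 ± 0.35), and Xbp1 fell (-1.14 ± 0.20), and Jchain had 375, 439.6 and 115 CPM in Jak2V617F, against 40.7, 153 and 99.6 CPM in WT without passing. Excluding Jak2V617F replicate 2 gave a log2 difference of -5.86 for Igll1, -4.80 for Rag1, 2.18 for Cr2 and -2.79 for Ebf1 (called, adjusted p = 0.0406). Without Jak2V617F replicate 3 the log2 difference was -5.22 for Rag2 and 2.07 for Jchain (called, adjusted p = 0.0275). Leaving out WT replicate 1 gave a log2 difference of 1.72 for Ighm (not called, adjusted p = 0.0541). Ighm was not called with the replicate number as a block (adjusted p = 0.0543). B lineage genes that rose numbered 1 without WT replicate 1.

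T and NK cell genes moved in both directions. Of 29 tested 10 rose and 4 fell (median 0.86). Cd8a, which a subset of dendritic cells also expresses, had 8.11, 30.6 and 23.8 CPM in Jak2V617F, against 0.392, 2.198 and 0.301 CPM in WT (4.42 ± 0.76, adjusted p = 0.000873). The CD3 genes Cd3e (1.22 CPM in Jak2V617F against 0.450 CPM in WT), Cd3d (1.93 CPM in Jak2V617F against 1.32 CPM in WT) and Cd3g (1.71 CPM in Jak2V617F against 0.664 CPM in WT) did not pass. Nkg7, a granule protein gene, fell (15.8 ± 1.45 CPM in Jak2V617F against 138 ± 12.9 CPM in WT; -3.12 ± 0.22), as did Cd27 (-1.70 ± 0.20) and Zbtb16 (-1.46 ± 0.42). With Jak2V617F replicate 1 left out the log2 difference was -2.38 for Zbtb16. Omitting WT replicate 2 changed the log2 difference to 5.88 for Cd8a. T and NK genes that rose numbered 4 without Jak2V617F replicate 2 or WT replicate 3.

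Notch pathway genes rose and fell about as often as genes in general. Notch receptors are cleaved on contact with a ligand and switch on target genes through Rbpj. The target and feedback genes Dtx1, Nrarp and Hes1 rose. Dtx1 had 11.3, 27.6 and 12.4 CPM in Jak2V617F, against 0.839, 1.07 and 0.422 CPM in WT (4.44 ± 0.48, adjusted p = 2.02e-05). Nrarp had 6.71, 6.97 and 6.49 CPM in Jak2V617F, against 1.73, 0.789 and 0.964 CPM in WT (2.52 ± 0.34), and Hes1 had 7.35, 12.1 and 10.3 CPM in Jak2V617F, against 2.63, 1.80 and 2.11 CPM in WT (2.18 ± 0.43). The receptor gene Notch1 fell and had 17.2, 23.1 and 9.71 CPM in Jak2V617F, against 111, 129 and 113 CPM in WT (-2.82 ± 0.26), while Notch4 rose (1.61 ± 0.31) and Notch2 (0.13 ± 0.13) and Rbpj (-0.07 ± 0.08) did not pass. Dtx4 (-3.20 ± 0.19) and Jag1 (-1.09 ± 0.31) fell. In all 4 of 16 rose and 4 fell (25.0% each), against 24.4% and 29.2% of all genes tested.

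Of 19 genes of TGF-beta and BMP signalling, 2 rose, the binding protein Ltbp1 (1.998 ± 0.37) and the co-receptor Eng (1.03 ± 0.19), and 11 fell. The BMP receptor Bmpr1a (0.733 ± 0.312 CPM in Jak2V617F against 6.75 ± 2.33 CPM in WT; -3.18 ± 0.61), the target gene Id1 (1.86 ± 0.264 CPM in Jak2V617F against 15.1 ± 1.08 CPM in WT) and Acvr1b (-1.81 ± 0.20) were among the genes that fell. Of 20 adhesion and homing genes 4 rose, Podxl and the integrin genes Itgb1 (0.79 ± 0.08), Itga4 (0.60 ± 0.08) and Itga5 (0.55 ± 0.10), which form fibronectin and VCAM-1 receptors. The leukocyte integrin chains Itgb2 (-2.25 ± 0.20) and Itgal (-1.69 ± 0.19), and Cxcr4 (65.96 ± 23.5 CPM in Jak2V617F against 191 ± 24.4 CPM in WT; -1.54 ± 0.22) were among the 9 that fell. Cxcl12, the ligand of Cxcr4 made by marrow stroma, had 0.161, 0 and 0.0527 CPM in Jak2V617F, against 1.79, 3.21 and 7.78 CPM in WT (-5.80 ± 0.78). Of 10 stroma and endothelium genes 8 fell, including Kitl (-2.83 ± 0.57), Pdgfrb (-1.73 ± 0.24) and Lpl (-2.58 ± 0.37). Of 13 fibrosis and matrix genes 2 rose, among them Col5a1 (94.9 ± 20.5 CPM in Jak2V617F against 32.9 ± 8.04 CPM in WT; 1.53 ± 0.34), and 6 fell, with Vim (-2.34 ± 0.13), Vegfa (-1.81 ± 0.14) and Lgals3 (-1.50 ± 0.22). The fit lacking Jak2V617F replicate 1 gave -7.02 for Cxcl12 on the log2 scale. After leaving out Jak2V617F replicate 2, the log2 difference was -5.18 for Cxcl12. Once WT replicate 3 was omitted the log2 difference was -5.04 for Cxcl12.

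Many genes for making proteins rose. All 18 called tRNA synthetase genes of 19 rose (median 0.81), and Dars did not pass (0.13 ± 0.09). Gars, the glycine enzyme, had 317, 293 and 318 CPM in Jak2V617F, against 159.7, 135 and 142 CPM in WT (1.09 ± 0.09, adjusted p = 1.97e-06). Of 26 genes of ribosome biogenesis and the Myc network 21 rose (median 0.80). Nucleolin, Ncl, was 2485 ± 188 CPM in Jak2V617F against 1282 ± 145 CPM in WT (0.95 ± 0.12) and nucleophosmin, Npm1, 1859 ± 202 CPM in Jak2V617F against 937 ± 79.3 CPM in WT (0.99 ± 0.12). Myc itself had 279, 220.3 and 282 CPM in Jak2V617F, against 229.8, 165 and 161 CPM in WT, with overlapping groups, and did not pass (adjusted p = 0.104). Its antagonists Mxd1 (-1.65 ± 0.32) and Mxd4 (-1.01 ± 0.13) and its relative Mycn (-1.30 ± 0.31) were the 3 that fell. Excluding WT replicate 1 gave a log2 difference of 0.72 for Myc (called, adjusted p = 0.0417).

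Of 29 translation factors 25 rose and 1, the stress kinase gene Eif2ak3, fell (-0.72 ± 0.11). Eef1a1, the most abundant, was 9657 ± 570.4 CPM in Jak2V617F against 7370.5 ± 1105 CPM in WT (0.39 ± 0.12), and Eif2ak1, the haem-regulated kinase of red cell precursors, rose (0.58 ± 0.10). Of 83 cytosolic ribosomal protein genes 54 rose and 0 fell (median 0.48). Their summed level was 69709.8, 64916 and 72289 CPM in Jak2V617F, against 60955, 44148 and 44901 CPM in WT, WT replicate 1 lying between the other WT libraries and Jak2V617F. Rplp0, the most abundant by count, was 3146 ± 239 CPM in Jak2V617F against 2046 ± 469 CPM in WT (0.62 ± 0.15), Rps27l rose with the smallest adjusted p (0.83 ± 0.09, adjusted p = 1.43e-05), and Rps14 (794 CPM in Jak2V617F against 787 CPM in WT) did not pass. Many of these genes have processed pseudogenes that can take part of their reads. Without Jak2V617F replicate 1 the log2 difference was 0.36 for Eef1a1 (not called, adjusted p = 0.0533). Leaving out WT replicate 2 gave a log2 difference of 0.32 for Eef1a1 (not called, adjusted p = 0.0607). With WT replicate 3 left out the log2 difference was 0.34 for Eef1a1 (not called, adjusted p = 0.0668). Eef1a1 was not called with both genotypes fitted alone (adjusted p = 0.0531). Cytosolic ribosomal protein genes that rose numbered 31 without WT replicate 2 and 32 without WT replicate 3.

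Many mitochondrial protein genes rose. Of 77 mitochondrial ribosomal protein genes 67 rose (median 0.58), such as Mrpl38 (1.19 ± 0.13) and Mrpl12 (1.13 ± 0.16), and 2 fell, among them Mrpl33 (35.4 ± 0.302 CPM in Jak2V617F against 72.5 ± 11.9 CPM in WT; -1.03 ± 0.11). Of 79 nuclear respiratory chain subunits 44 rose and 3 fell (median 0.38). Cyc1 (0.86 ± 0.11) and Atp5g1 (0.93 ± 0.11) rose, and Ndufv3 (-0.78 ± 0.08), Ndufb7 (-0.37 ± 0.07) and the muscle form Cox6a2 (-1.24 ± 0.37) fell. Of 28 genes on the mitochondrial genome 14 rose (50%) and 0 fell (median 0.59), against 24.4% and 29.2% of all genes tested. They include 13 mitochondrial tRNA genes, which encode no protein, and 9 of those 13 rose. In the proteasome list 32 of 38 genes rose (median 0.44), for example Psmd3 (0.90 ± 0.12) and Psmd11 (0.81 ± 0.07). The 2 that fell, Psmb8 (43.6, 54.3 and 49.2 CPM in Jak2V617F, against 82.3, 124 and 141 CPM in WT; -1.24 ± 0.17) and Psmb9 (-1.03 ± 0.19), are catalytic subunits of the interferon-inducible immunoproteasome, and the third such subunit, Psmb10, did not pass (-0.27 ± 0.12). Their constitutive counterparts Psmb5 (0.46 ± 0.08) and Psmb7 (0.42 ± 0.08) rose, and Psmb6 did not pass (0.21 ± 0.09). Omitting Jak2V617F replicate 2 changed the log2 difference to 0.28 for Psmb6 (called, adjusted p = 0.0369). The fit lacking Jak2V617F replicate 3 gave -0.37 for Psmb10 (called, adjusted p = 0.0245) on the log2 scale. After leaving out WT replicate 2, the log2 difference was -0.35 for Psmb10 (called, adjusted p = 0.0405). Once WT replicate 3 was omitted the log2 difference was 0.27 for Psmb6 (called, adjusted p = 0.0447).

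Nucleotide and one-carbon genes rose. Of 24 nucleotide synthesis genes 18 rose and 2 fell (median 0.64). Cad, which starts pyrimidine synthesis, had 650.01, 607 and 657 CPM in Jak2V617F, against 301, 212 and 272 CPM in WT (1.29 ± 0.12), and Ppat, which commits purine synthesis, rose by 0.94 ± 0.12. Rrm2 (0.14 ± 0.11), Tyms (0.12 ± 0.09), Tk1 (-0.07 ± 0.08) and Dck (-0.09 ± 0.09) did not pass. Of 19 serine, one-carbon and amino acid response genes 13 rose and 2 fell (median 0.59). Mthfd1, the trifunctional folate enzyme, had 999, 812 and 979 CPM in Jak2V617F, against 360.4, 241 and 329 CPM in WT (1.58 ± 0.18). Asns (1.26 ± 0.20) and Atf4 (0.52 ± 0.15) rose, Ddit3 did not pass (0.27 ± 0.23), and Chac1 fell (-1.43 ± 0.38). Excluding Jak2V617F replicate 1 gave a log2 difference of 0.26 for Rrm2 (called, adjusted p = 0.0448).

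For many metabolic steps a gene rose while another gene for the same step fell. Of 27 glycolysis genes 7 rose and 15 fell. Pklr, the pyruvate kinase of red cells and liver, had 524, 377 and 429 CPM in Jak2V617F, against 153, 98.7 and 130.4 CPM in WT (1.80 ± 0.25, adjusted p = 0.000214). Pkm, the form of most other tissues, had 157, 167 and 113 CPM in Jak2V617F, against 982, 1156 and 1010 CPM in WT (-2.85 ± 0.16, adjusted p = 1.8e-07). Per kilobase of gene length the mean level of Pklr was 137 CPM in Jak2V617F, against 39.4 CPM in WT, and for Pkm it was 29.2 CPM in Jak2V617F, against 209.8 CPM in WT, so that the order of the 2 genes differed between genotypes. Among hexokinases Hk1, the red cell form, had 754, 678 and 745 CPM in Jak2V617F, against 360.1, 279 and 352 CPM in WT (1.14 ± 0.13), whereas Hk2 (-2.18 ± 0.17) and the myeloid form Hk3 (49.2 ± 13.02 CPM in Jak2V617F against 580.4 ± 77.3 CPM in WT; -3.56 ± 0.19) fell. Pfkm (1.37 ± 0.22) and Pfkl (0.37 ± 0.07) rose and Pfkp fell (-0.75 ± 0.10). Ldha rose (0.55 ± 0.07) and Ldhb had 2.31, 2.01 and 0.949 CPM in Jak2V617F, against 32.1, 26.7 and 30.6 CPM in WT (-4.08 ± 0.31). Of the lactate carriers Slc16a1 rose (0.85 ± 0.10) and Slc16a3 fell (-2.71 ± 0.24). Other glycolytic enzymes such as Gpi1 (-1.54 ± 0.12), Pgk1 (-0.67 ± 0.07) and Eno1 (-0.75 ± 0.10) fell, the glucose carriers Slc2a1 (-1.20 ± 0.25) and Slc2a3 (-0.94 ± 0.17) fell, and Tpi1 did not pass (0.13 ± 0.07). Pgam1 and Gapdh have many processed pseudogenes and their values are uncertain. Without Jak2V617F replicate 2 the log2 difference was 0.21 for Tpi1 (called, adjusted p = 0.0499).

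The same held outside glycolysis. Of 18 genes listed for the citric acid cycle 14 rose and 2 fell (median 0.45). Idh3a, of the mitochondrial NAD-dependent isocitrate dehydrogenase, rose (1.01 ± 0.14), while the NADP-dependent Idh1 (16.7 ± 0.555 CPM in Jak2V617F against 83.5 ± 3.81 CPM in WT; -2.32 ± 0.10) and Idh2 (-0.72 ± 0.11) were the fallers. Idh1, although counted in this list, encodes an enzyme outside the mitochondrion and the cycle. Ctps rose and Ctps2 fell (0.81 ± 0.11 and -1.43 ± 0.13), as did Impdh2 and Impdh1 (0.80 ± 0.12 and -1.06 ± 0.15) and Shmt2 and Shmt1 (1.22 ± 0.13 and -0.97 ± 0.15). In the pentose phosphate and redox list 12 rose and 5 fell of 23. Nqo1 (29.4 ± 3.50 CPM in Jak2V617F against 7.48 ± 2.23 CPM in WT; 1.98 ± 0.22), the glutathione synthesis gene Gclm (1.30 ± 0.13) and the peroxiredoxin Prdx3 (1.32 ± 0.13) rose. The NADPH-producing enzymes G6pdx (-0.91 ± 0.09) and Pgd (-1.36 ± 0.11) and the NADPH-using glutathione reductase Gsr (134 ± 20.5 CPM in Jak2V617F against 520.2 ± 64.02 CPM in WT; -1.96 ± 0.15) fell. The pairs of genes for the same or a related step were picked out after their values had been seen.

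**Figure D5:**
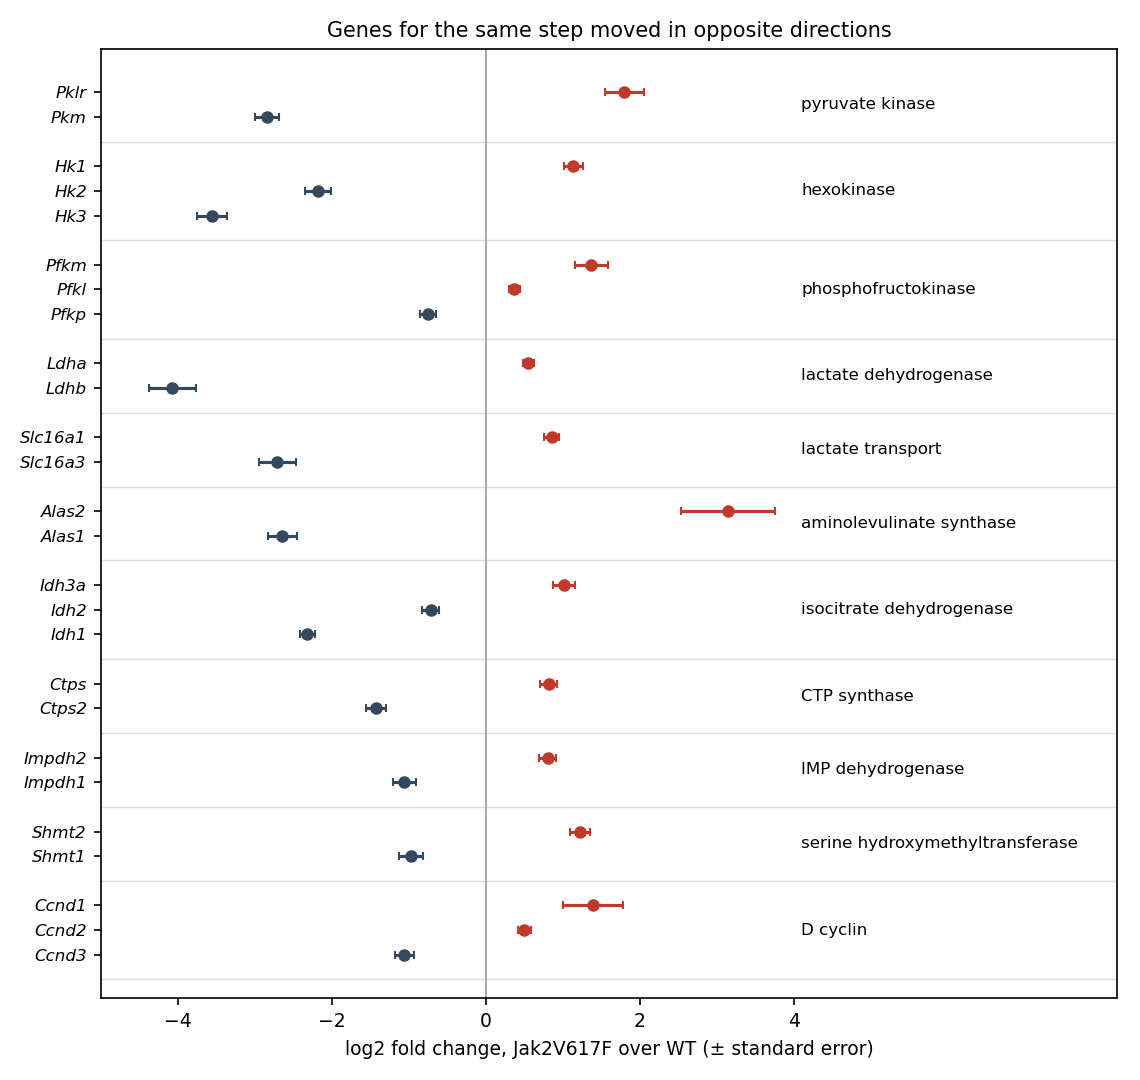
Log2 fold change of Jak2V617F over WT with standard error for genes that serve the same or a related step, grouped by step. Every step shown has at least 1 gene right of 0 (red) and 1 left of it (blue), for instance Pklr at 1.80 and Pkm at -2.85.

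Cell cycle genes did not move as a block. Of 30 DNA replication genes 18 rose and 2 fell (median 0.28). Orc1 (48.1 ± 0.237 CPM in Jak2V617F against 25.1 ± 3.65 CPM in WT; 0.94 ± 0.16), Cdc6 (0.65 ± 0.10) and Cdt1 (0.62 ± 0.14), which load the replicative helicase, rose with Mcm2 (0.52 ± 0.09). Of 24 mitosis genes 3 rose and 9 fell (median -0.09). The proliferation marker Mki67 had 1253, 1344 and 1228 CPM in Jak2V617F, against 1127, 1355 and 1326 CPM in WT and did not pass (0.01 ± 0.09), while Kif23 (-0.85 ± 0.09) and Ndc80 (-0.76 ± 0.09) fell. Among D cyclins Ccnd1 (29.4 ± 14.9 CPM in Jak2V617F against 11.2 ± 3.68 CPM in WT) and Ccnd2 rose, and Ccnd3, which sets the number of divisions in red cell precursors, fell (177 ± 24.4 CPM in Jak2V617F against 369 ± 27.9 CPM in WT; -1.06 ± 0.13). Ccne1 rose (1.18 ± 0.24). Of the inhibitors Cdkn2d (-2.02 ± 0.17) and Cdkn2c (-0.76 ± 0.12) fell, and Cdkn1a (0.17 ± 0.42) did not pass. Ccnd1 was not called with no filter on low counts (adjusted p = 0.0591). Mitosis genes that rose numbered 6 without Jak2V617F replicate 2, 8 without WT replicate 1, 1 without WT replicate 2, 6 with DESeq2, median-of-ratios scaling, scaling by library totals or a stricter filter, 7 with upper quartile scaling and 5 with both genotypes fitted alone.

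More members of the p53 target list rose than fell, and apoptosis genes moved in both directions. Trp53 had 347, 334 and 379 CPM in Jak2V617F, against 242, 161 and 185 CPM in WT (0.85 ± 0.14, adjusted p = 0.000284). Of 23 genes of the p53 target list 12 rose (52.2%) and 5 fell (21.7%), against 24.4% and 29.2% of all genes tested (list median 0.58). Phlda3 (2.42 ± 0.36), Zmat3 (1.97 ± 0.26) and Eda2r (2.67 ± 0.40) rose, Cdkn1a did not pass, and Mdm2 (-0.39 ± 0.09), Perp (-3.01 ± 0.37) and Tigar (-2.24 ± 0.26) fell. Among 24 apoptosis genes the BH3-only genes Pmaip1 (11.2, 25.9 and 25.9 CPM in Jak2V617F, against 3.36, 4.85 and 2.53 CPM in WT; 2.55 ± 0.35), Bbc3 (1.38 ± 0.25) and Bcl2l11 (1.13 ± 0.14) rose with Bax (70.5 ± 2.86 CPM in Jak2V617F against 41.9 ± 1.96 CPM in WT; 0.75 ± 0.09). Survival genes Bcl2 (15.5 ± 2.41 CPM in Jak2V617F against 41.4 ± 6.71 CPM in WT; -1.41 ± 0.17), Cflar (-1.65 ± 0.13) and Xiap (-0.64 ± 0.09) fell, as did the initiator genes Casp8 (-1.02 ± 0.10) and Apaf1 (-0.90 ± 0.10). In all 7 apoptosis genes rose (29.2%) and 8 fell (33.3%), shares near the 24.4% and 29.2% of all genes tested.

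Many chaperone genes of the cytosol and mitochondria rose, and 2 of the endoplasmic reticulum fell. Of 19 genes 12 rose and 2 fell (median 0.71). Hspd1 (1493 ± 228 CPM in Jak2V617F against 586 ± 101 CPM in WT; 1.35 ± 0.17) and Hspe1 (1.58 ± 0.16) form the mitochondrial chaperonin. Hsp90aa1 was 2628 ± 566 CPM in Jak2V617F against 1207 ± 229 CPM in WT (1.12 ± 0.21), and the reticulum chaperones Hspa5 (-0.50 ± 0.18) and Hsp90b1 (-0.57 ± 0.15) were the fallers. Of 25 lysosome and autophagy genes 16 fell and 3 rose (median -0.50). The transcription factor Tfec (-3.84 ± 0.20) and the hydrolase gene Hexa (-2.31 ± 0.13) fell, Gabarapl1 rose (0.62 ± 0.13), and Becn1 (-0.04 ± 0.08) and Atg5 (0.07 ± 0.10) did not pass. Of 21 cholesterol genes 4 rose, such as Sqle (0.86 ± 0.23), and 7 fell, such as Mvd (-1.53 ± 0.19). Leaving out Jak2V617F replicate 1 gave a log2 difference of -0.32 for Hspa5 (not called, adjusted p = 0.126). With Jak2V617F replicate 3 left out the log2 difference was -0.53 for Hspa5 (not called, adjusted p = 0.061). Omitting WT replicate 1 changed the log2 difference to -0.41 for Hspa5 (not called, adjusted p = 0.131). The fit lacking WT replicate 3 gave -0.43 for Hspa5 (not called, adjusted p = 0.108) on the log2 scale. Hspa5 was not called with median-of-ratios scaling, upper quartile scaling, no filter on low counts, both genotypes fitted alone and the replicate number as a block (adjusted p = 0.0543 to 0.104). Cholesterol synthesis genes that rose numbered 2 without Jak2V617F replicate 3, WT replicate 2 or WT replicate 3. Cholesterol synthesis genes that fell numbered 3 without Jak2V617F replicate 1 or Jak2V617F replicate 2, 4 without WT replicate 3 and 4 with both genotypes fitted alone.

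Chromatin regulators and known drivers of myeloid neoplasms moved in both directions, in shares near those of all genes tested for PRC1 and PRC2. These shares were 33.3% higher and 28.6% lower for PRC1 and 27.3% higher and 36.4% lower for PRC2, against 24.4% and 29.2% of all genes. Of 11 PRC2 genes 3 rose, among them Rbbp7 (0.47 ± 0.07) and Suz12 (0.30 ± 0.07), 4 fell, among them Phf19 (-1.44 ± 0.14) and Mtf2 (-0.36 ± 0.08), and the methyltransferase gene Ezh2 did not pass (218 ± 9.03 CPM in Jak2V617F against 191 ± 2.83 CPM in WT; 0.19 ± 0.09). Of 21 PRC1 genes 7 rose, led by Pcgf6 (1.02 ± 0.16), and 6 fell, among them Pcgf5 (-1.16 ± 0.09). Among the 10 genes of the ASXL and BAP1 complex 4 rose, among them Hcfc1 (0.53 ± 0.08), Asxl2 (0.36 ± 0.07) and Bap1 (0.32 ± 0.07), and Mbd6 fell (-0.66 ± 0.16). Of 35 driver genes 8 rose and 15 fell, including Tet2 (33.9 ± 4.39 CPM in Jak2V617F against 59.8 ± 8.18 CPM in WT; -0.82 ± 0.13), Runx1 and Etv6 (-0.92 ± 0.11), while Sf3b1 (-0.02 ± 0.07), Ptpn11 (-0.02 ± 0.07), Nras (0.12 ± 0.08) and Bcor (-0.04 ± 0.10) did not pass. Driver genes that rose numbered 5 without WT replicate 3. PRC2 genes that rose numbered 5 with upper quartile scaling. PRC2 genes that fell numbered 2 without Jak2V617F replicate 3 or WT replicate 2 and 2 with upper quartile scaling.

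Long noncoding genes seldom rose. Of 466 lincRNA genes 46 rose (9.87%) and 147 fell (31.5%), and of 530 antisense genes 27 rose (5.09%) and 133 fell (25.1%), where the strand setting of the count is not given, against 24.4% and 29.2% of all genes tested. Of 849 processed pseudogenes 124 rose (14.6%) and 69 fell (8.13%), and of 84 snoRNA genes 7 rose (8.33%) and 4 fell (4.76%). Both classes also rose less often than all genes tested, and they differed from lincRNA and antisense genes in seldom falling. Genes at low levels also seldom rose as a whole. In the lowest of the 5 groups by level 233 of 3252 genes rose and 773 fell, and in the next group 447 of 3252 rose and 1023 fell. The part of level in the shares of noncoding genes was not tested. Malat1 (688, 771 and 584 CPM in Jak2V617F, against 865, 1056 and 1097 CPM in WT; -0.56 ± 0.20) and Neat1 (68.4 ± 20.5 CPM in Jak2V617F against 229.7 ± 75.6 CPM in WT; -1.75 ± 0.28), nuclear RNAs, fell, and Pvt1, the neighbour of Myc, rose (17.8 ± 0.948 CPM in Jak2V617F against 6.62 ± 1.42 CPM in WT; 1.43 ± 0.27). The snoRNA host genes Snhg12 (0.92 ± 0.13), Snhg8 (0.87 ± 0.21) and Snhg1 (0.60 ± 0.11) rose, and Gas5 did not pass (0.28 ± 0.13). Outside the protein-coding class the most abundant genes that rose were the immunoglobulin gene Ighm, AI506816 (0.85 ± 0.16) and a processed transcript listed as Cct6a (0.87 ± 0.11), and those that fell were Malat1, Gm8995 (-2.18 ± 0.26) and 1700020I14Rik (-0.39 ± 0.11). After leaving out Jak2V617F replicate 1, the log2 difference was -0.56 for Malat1 (not called, adjusted p = 0.0882). Once Jak2V617F replicate 2 was omitted the log2 difference was 0.45 for Gas5 (called, adjusted p = 0.0087). Excluding Jak2V617F replicate 3 gave a log2 difference of -0.45 for Malat1 (not called, adjusted p = 0.128). Without WT replicate 2 the log2 difference was -0.53 for Malat1 (not called, adjusted p = 0.101). Leaving out WT replicate 3 gave a log2 difference of -0.50 for Malat1 (not called, adjusted p = 0.105). Malat1 was not called with median-of-ratios scaling, scaling by library totals, upper quartile scaling and no filter on low counts (adjusted p = 0.054 to 0.124).

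The 15 largest falls included genes described above, among them Siglec1, Cxcl12, Igll1, Vpreb1 and Rag2. Cd209f, a lectin gene, had 0 reads in the 3 Jak2V617F libraries and 539 reads in WT, where its level was 10.3 CPM, and was at least 199-fold lower against a floor of 3 reads over the Jak2V617F group (adjusted p = 2.13e-06). Enpep, a peptidase, had 0, 0.441 and 0.105 CPM in Jak2V617F, against 6.77, 8.73 and 10.2 CPM in WT (-5.46 ± 0.83). The complement gene C4b had 0.0537, 0.196 and 0.158 CPM in Jak2V617F, against 1.57, 1.58 and 15.7 CPM in WT (-5.44 ± 1.25), with WT replicate 3 highest. The other large falls outside the lists were Vpreb2 (-5.57 ± 0.85), Chp2 (-5.32 ± 0.74), Cfap57 (-5.20 ± 0.56), Myl10 (-4.86 ± 0.45), Ccdc149 (-4.67 ± 0.45), the complement protease C1ra (-4.64 ± 0.61) and Aldh3b3 (-4.62 ± 0.36). With Jak2V617F replicate 1 left out the log2 difference was -6.28 for C1ra. Omitting Jak2V617F replicate 2 changed the log2 difference to -7.11 for Enpep and -6.98 for Chp2. The fit lacking WT replicate 3 gave -3.45 for C4b on the log2 scale.

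The last comparison asked whether Jak2V617F had the same effect where Asxl1 was deleted. It sets the difference of Asxl1-/-Jak2V617F (n = 3) from Asxl1-/- (n = 2) against that of Jak2V617F from WT, and the 2 differences share no library. The difference of differences passed for 6764 of 16262 genes (41.6%), and for 4483 without Asxl1-/- replicate 1. On the Asxl1-/- background 538 genes rose (3.31%) and 361 fell (2.22%). Genes higher in both comparisons numbered 120, which is 3.03% of those higher against WT and 22.3% of those higher on the Asxl1-/- background. Among all genes tested 3.31% were higher on the Asxl1-/- background and 24.4% against WT, near these shares. Genes lower in both numbered 224, or 4.72% and 62.0%, above the 2.22% and 29.2% of all genes tested. Other genes moved in opposite directions. Those lower against WT but higher on the Asxl1-/- background numbered 151, or 3.18% and 28.1%. The shares of all genes tested were close to these, 3.31% and 29.2%. Those higher against WT but lower on the Asxl1-/- background numbered 32, or 0.807% and 8.86%. Both shares were below the 2.22% and 24.4% of all genes tested. The 3 Asxl1-/-Jak2V617F libraries had 1390 to 1551 CPM of Xist, while the 2 Asxl1-/- libraries had 0.175 and 0 CPM of Xist and 184 and 199 CPM of Y chromosome reads, so that sex and genotype cannot be told apart on that background.

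On the Asxl1-/- background Epor differed by -0.33, against 1.67 on the WT background (difference -2.004 ± 0.31, edgeR adjusted p = 0.000863). Klf1 differed by -0.47 on the Asxl1-/- and 1.65 on the WT background (-2.12 ± 0.35, adjusted p = 0.00131). Mpo differed by 0.19 on the Asxl1-/- and -3.70 on the WT background (3.89 ± 0.39, adjusted p = 5.29e-05), and Cd34 by -0.52 on the Asxl1-/- and -2.91 on the WT background (2.39 ± 0.24, adjusted p = 5.29e-05). Fli1 differed by -0.18 on the Asxl1-/- and -2.45 on the WT background (2.27 ± 0.27, adjusted p = 0.000143). H2-Aa, an MHC class II chain, differed by -0.18 on the Asxl1-/- and 3.57 on the WT background (-3.75 ± 0.38, adjusted p = 1e-04). Jak2 differed by -0.14 on the Asxl1-/- and 0.71 on the WT background (-0.85 ± 0.12, adjusted p = 0.000273). Podxl rose on both, by 3.77 on the Asxl1-/- background (adjusted p = 0.00347) and by 6.72 on the WT background, and the difference also passed (-2.95 ± 0.56, adjusted p = 0.00323).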

How the data were processed

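RNA-seq counts per gene were deposited by the authors as raw whole-number counts for 54532 genes and used as deposited. Per the submitters' processing notes, the build was mm10 and the tools used in the series included featureCounts 1.5.0-p3 and HISAT2 2.0.5, with no role or strand setting stated. Genes were filtered with filterByExpr, scaled by TMM and fitted in edgeR 4.0.16 (R 4.3.3, robust quasi-likelihood test) with genotype as the only term over all 11 RNA-seq libraries, which share the estimate of spread. P-values were adjusted by Benjamini-Hochberg over 16262 genes. The common biological coefficient of variation was 19.7%. The labels do not tie replicates to separate mice, and p-values therefore cover only the spread among these libraries, which may be technical. All replicate pairs differed by more than sampling noise (chi-square per degree of freedom 13.2 to 33.1).

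Gene members and lists were chosen with earlier results of these data known. Genes named in the text are the 15 largest rises and falls among called protein-coding genes with a mean of at least 2 CPM and no overlap between genotypes, the 3 most abundant genes outside the protein-coding class called in each direction, and in each list the 3 risers and 3 fallers of smallest adjusted p, the most abundant member and members that did not pass. Further genes were picked for their known role after their values were seen. Where a single library omitted ended or gave a call of a named gene, or moved a called fold or a list's count of 0 or of 3 and more by over 1.5 times, that value is given in the same paragraph. On simulated counts for 15733 genes in place of Jak2V617F against WT, the test recovered 67 of the 100 genes given a 2-fold change. It recovered 98 of the 100 given a 4-fold change, with 7 other genes called. These counts held a far smaller share of changed genes than the 53.5% called in the data, and a share that large was not tested. Alternatives were DESeq2 1.42.0, other scalings and filters, the 2 genotypes alone, a replicate block and each library left out. Promoter windows came from RefSeq (GRCm38.p6).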

Additional observations from a re-analysis of the deposited data

Results flagged for a closer look

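For 8 genes the effect of Jak2V617F differed between the Asxl1-/- and WT backgrounds by the test of that difference in edgeR. The values are the log2 difference on the Asxl1-/- background (3 Asxl1-/-Jak2V617F against 2 Asxl1-/- libraries) minus that on the WT background. They were -0.85 for Jak2, -2.004 for Epor, -2.12 for Klf1, 3.89 for Mpo, 2.39 for Cd34, 2.27 for Fli1, -3.75 for H2-Aa and -2.95 for Podxl. In the first 7 the effect on the Asxl1-/- background lay between -0.52 and 0.19 and did not pass, while Podxl was higher with Jak2V617F on both backgrounds. The 8 genes were chosen with earlier results of these data known, and 41.6% of all genes passed this test. The 2 Asxl1-/- libraries had 0.175 and 0 CPM of Xist, against 1390 to 1551 CPM in the 3 Asxl1-/-Jak2V617F libraries.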

How the results depend on the processing

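The counts of genes higher and lower in Jak2V617F stayed within 1.5 times of 3965 and 4741 under all 14 alternatives. DESeq2 gave 4371 higher and 4495 lower, upper quartile scaling 4536 and 4321, no filter 3556 and 4762 of 29462 genes, and the 2 genotypes alone 3810 and 4169. Leaving out 1 library of either genotype gave 3263 to 4264 higher and 4145 to 4344 lower. The higher share of calls ran from 42.8% without a filter to 51.2% with upper quartile scaling, against 45.5%, so no scaling moved it by 10 points. The genes whose difference differed between backgrounds numbered 4483 to 7016 when 1 library was left out, the lowest without Asxl1-/- replicate 1, which leaves 1 library in that group, assumed to vary like the others.

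With the replicate number as a block 3974 genes were higher and 4703 lower. The labels state no pairing by number. Deviations of same-numbered libraries correlated at -0.04, 0.16 and -0.04, and Jak2V617F replicates 1 and 3 correlated better with WT replicates of another number. With 3 libraries per genotype these correlations depend on each other, so they cannot decide whether the numbers were a pairing.

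No named gene called in the comparison reversed under any alternative, but 10 of 333 lost the call under at least 1, 9 with a library left out and 6 under another tool, scaling, filter or model. Gata2 was lost with DESeq2, Hspa5 and Malat1 with other scalings and no filter, and Ccnd1 without the filter. Of 94 named genes not called, 31 gained a call under at least 1 alternative. Of list counts, 103 of 1764 moved by over 1.5 times, mostly counts of a few genes. C4b has no DESeq2 adjusted p. Of 5 equal groups of genes by level, the lowest had 233 higher and 773 lower calls and the highest 1471 and 858, and the part of depth in this was not tested. The cause of each shift was not tested.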
